A study of Homo sapiens with 12 samples.

Results

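Genes that supply amino acids and charge transfer RNAs, of the kind controlled by the transcription factor ATF4, were followed in SW480 cells, a long-used human line grown out of a colon adenocarcinoma, in which GPD1L, the gene for glycerol-3-phosphate dehydrogenase 1-like, had been knocked down or overexpressed. The 42 genes were chosen by name, for amino acid synthesis, one-carbon metabolism, amino acid transport or cytosolic tRNA synthetase activity. No cutoff on measured values was used, but the choice was made with earlier results of these data known. Of these, 40 were listed in both of the authors' tables, among 12203 annotated genes common to the tables. The transsulfuration gene CBS and the lipoprotein receptor gene VLDLR are not among the listed genes and were not analysed here. Poly(A) RNA was sequenced in 3 libraries of each of 4 groups. These were a line with a short hairpin RNA against GPD1L (shGPD1L) and its line with a control hairpin (shNC), and a stably transfected line overexpressing GPD1L (OE) and its control line (Vector). Each state of GPD1L is thus 1 line against 1 control line. The sources used here do not give the hairpin sequence, the promoter of the construct or whether a line is 1 clone. An effect of GPD1L and any other difference between a line and its control cannot be told apart. The labels do not tie the 3 libraries of a group to separate cultures, and the p-values below describe spread among libraries that may be technical.

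ATF4 is made when the integrated stress response slows general protein synthesis, for example when the kinase GCN2 senses uncharged transfer RNA. It pairs with C/EBP-family or other bZIP proteins on composite DNA elements and raises genes for amino acid synthesis, uptake and tRNA charging. Amino acids then reach the ribosome through tRNA synthetases, which join each amino acid to its own transfer RNA. ATF3, which the series title links to ferroptosis, belongs to the same stress network.

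Levels are in FPKM (fragments scaled by transcript length and by mapped fragments), which is a value per length, so different genes may be compared within a table. A change is the difference of mean log2(FPKM + 1), tested with limma across every gene averaging 1 FPKM or more, and a gene is "called" at a Benjamini-Hochberg adjusted p under 0.05. All 40 listed genes passed that filter. Library totals ran from 421714 to 444794 FPKM, and read depth is unknown. The totals of OE, 421714 to 423368 FPKM, all lay below those of Vector, 437051 to 438967 FPKM. Those of shGPD1L, 435140 to 443838 FPKM, and shNC, 440039 to 444794 FPKM, overlapped. GPD1L was at 1.55, 1.26 and 2.23 FPKM in shGPD1L and at 8.68, 8.01 and 9.10 FPKM in shNC. It was at 22.3, 22.8 and 22.1 FPKM in OE and at 10.7, 10.2 and 11.1 FPKM in Vector. Of 8 colon epithelial markers 7 were listed in every library, with EPCAM from 177 to 344 FPKM and KRT8 from 1620 to 2590 FPKM, while the mature enterocyte keratin KRT20 was listed only in the OE and Vector table, at 0.37 to 1.32 FPKM. Of 7 markers of leukocytes, fibroblasts and endothelium 6 were listed in neither table and COL1A1 was at 0.32 to 0.971 FPKM. The library shGPD1L replicate 3 stood apart on the first principal component of its table, at 29.1 against -12.1 to 0.319 for the other 5 libraries, so knockdown results are also given without it.

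When GPD1L was overexpressed, asparagine synthetase, the mitochondrial folate enzyme MTHFD2, the neutral amino acid transporters SLC38A1 and SLC38A2, the cationic amino acid transporter SLC7A1, the tRNA exporter XPOT and 9 of 18 tRNA synthetase genes rose, each by less than 30% in FPKM. Serine synthesis genes were not among them. Of the 40 genes 15 were called higher and 2 lower, or 37.5% and 5%. Among all 12208 genes tested 12.2% were called higher and 10.3% lower, 22.4% in all. The median log2 change was 0.12 over the 40 genes and 0.024 over all genes tested. The 40 genes also varied less between replicates than other genes, with a median SD of 0.0483 log2 units in OE and 0.0481 in Vector, against 0.0803 in OE and 0.0761 in Vector over all genes, and the part of this in the number of calls was not tested. In 21 of the 40 genes all OE libraries lay above all Vector libraries and in 5 they lay below, where the shares over all genes were 24.2% above and 17.6% below.

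The number called higher stayed between 14 and 20 under the scalings tried, and the number called lower between 0 and 3. With library totals set equal 20 of the genes were called higher and 0 lower, with 71.5% of all called genes higher against 54.2% without scaling. With median-of-ratios scaling 14 were called higher and 3 lower, and with quantile normalization 19 higher and 1 lower.

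ASNS (ENSG00000070669, chromosome 7, 97852118 to 97872542, minus strand, GRCh38) encodes asparagine synthetase, which makes asparagine from aspartate and glutamine and is a classical ATF4 target. It was listed at 479, 464 and 447 FPKM in OE and at 360, 356 and 374 FPKM in Vector. All OE libraries were above all Vector libraries. The log2 change was 0.35 (SE 0.041, adjusted p = 0.00146), a ratio of mean FPKM of 1.275. The 250 bases before one of its RefSeq start sites (GRCh38.p14, chr7:97872409-97872658, minus strand) are shown because they hold the composite element for which this promoter is known, in capitals, beginning 68 bases before the start.

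ASNS: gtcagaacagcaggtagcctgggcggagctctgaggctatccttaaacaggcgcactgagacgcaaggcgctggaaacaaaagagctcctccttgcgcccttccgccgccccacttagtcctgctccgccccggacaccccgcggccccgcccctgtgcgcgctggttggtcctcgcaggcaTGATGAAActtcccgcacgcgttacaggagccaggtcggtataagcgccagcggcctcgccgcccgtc

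The other genes of proline synthesis and of the mitochondrial phosphoenolpyruvate step were not called. ALDH18A1, whose product starts proline synthesis from glutamate, was at 26.2, 24.2 and 24.2 FPKM in OE and at 27.1, 28.0 and 28.9 FPKM in Vector, without overlap (log2 change -0.17, SE 0.053, adjusted p = 0.0551). PYCR1, which completes proline synthesis, and PCK2, mitochondrial phosphoenolpyruvate carboxykinase, had overlapping groups. CTH, which makes cysteine from cystathionine, was the lowest of the 40 genes in FPKM, at 8.90, 7.91 and 8.06 in OE and 8.14, 7.97 and 8.46 in Vector (adjusted p = 0.889).

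**Figure D1:**
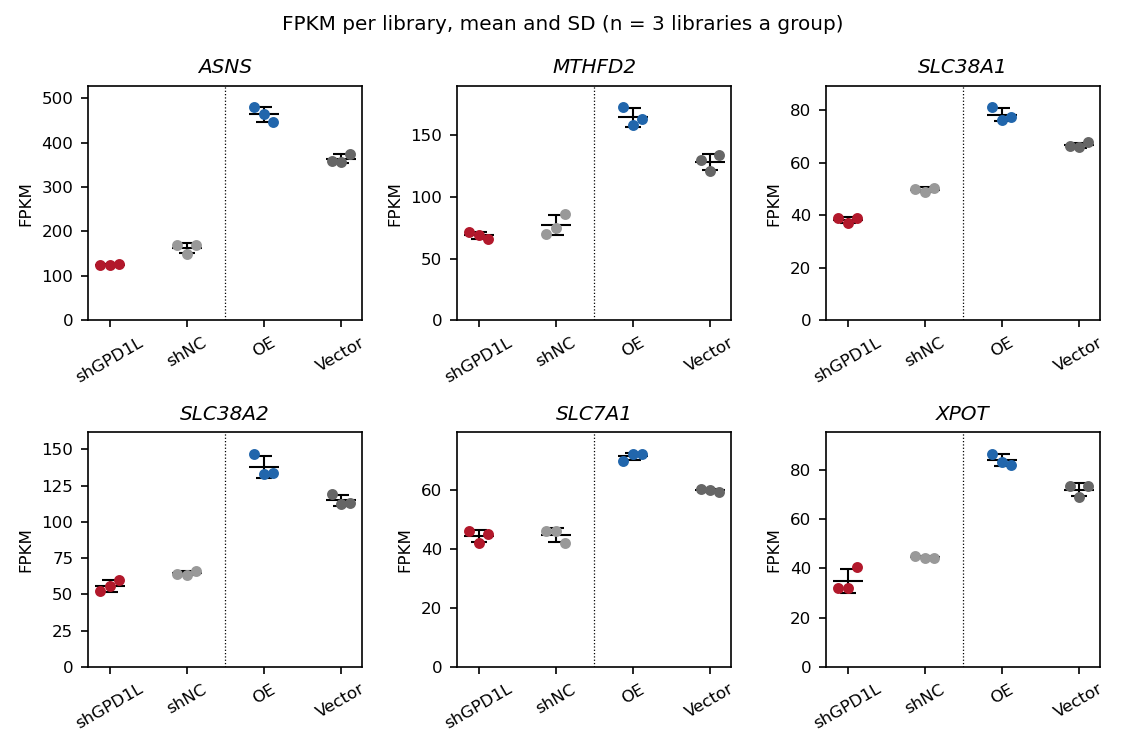
FPKM (vertical axis, from 0) of 6 genes in each library of shGPD1L, shNC, OE and Vector. Points are libraries, black bars the mean and SD over 3 libraries, and the dotted line separates the 2 tables. In all 6 panels the OE points lie above the Vector points, and in those of ASNS, SLC38A1, SLC38A2 and XPOT the shGPD1L points lie below the shNC points.

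In serine, glycine and one-carbon metabolism 1 of 8 genes was called, higher, or 12.5%, which is near the 12.2% called higher over all genes tested. MTHFD2 (ENSG00000065911, chromosome 2, 74198562 to 74217565, plus strand), a mitochondrial dehydrogenase and cyclohydrolase that passes one-carbon units toward formate, was at 173, 158 and 163 FPKM in OE and at 130, 121 and 134 FPKM in Vector. The groups did not overlap, and the log2 change was 0.36 (SE 0.053, adjusted p = 0.00345). Its exons overlap those of SLC4A5 on the other strand, and since the labels' protocols describe no step that keeps the strand, reads of the pair may not have been separated. The genes of the 3 enzymes that make serine from a glycolytic intermediate (PHGDH, PSAT1 and PSPH) were not called. PSAT1, the phosphoserine aminotransferase, was at 238, 238 and 229 FPKM in OE and at 242, 245 and 231 FPKM in Vector. Its log2 change was -0.026 (adjusted p = 0.676), or 0.025 with equal library totals, and those of PHGDH and PSPH were -0.074 (adjusted p = 0.253) and 0.12 (adjusted p = 0.143). The hydroxymethyltransferases SHMT1 and SHMT2 and the folate enzymes MTHFD1 and MTHFD1L had log2 changes between -0.13 and 0.095 and were not called.

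Of 7 amino acid transporter genes 3 were called higher and 0 lower, or 42.9% and 0%, against 12.2% and 10.3% over all genes tested. SLC38A2 (ENSG00000134294, chromosome 12, 46358189 to 46372867, minus strand), a sodium-coupled transporter of small neutral amino acids that cells raise on amino acid shortage, was at 147, 133 and 134 FPKM in OE and at 119, 112 and 113 FPKM in Vector (log2 change 0.26, SE 0.050, adjusted p = 0.00918). SLC38A1 (ENSG00000111371, chromosome 12, 46183063 to 46270017, minus strand), its neighbour on the chromosome and a glutamine transporter of the same family, was at 81.1, 76.4 and 77.3 FPKM in OE and at 66.3, 66.0 and 67.8 FPKM in Vector (log2 change 0.23, SE 0.042, adjusted p = 0.0078). In both genes every OE library exceeded every Vector library. SLC7A1 (chromosome 13, 29509410 to 29595688, minus strand), the carrier of arginine and lysine, was at 69.8, 72.1 and 71.9 FPKM in OE and at 60.3, 59.7 and 59.2 FPKM in Vector (log2 change 0.25, SE 0.039, adjusted p = 0.00408). The 2 subunits of the leucine exchanger, SLC7A5 and its heavy chain SLC3A2, had log2 changes of 0.13 (adjusted p = 0.0982) and 0.093 (adjusted p = 0.258). The glutamine carrier gene SLC1A5 and the glycine carrier gene SLC6A9 were not called and their groups overlapped.

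Of the 18 cytosolic tRNA synthetase genes 9 were called higher, 2 lower and 7 not called, with a median log2 change of 0.17. These are 50% higher and 11.1% lower, against 12.2% and 10.3% over all genes tested. RARS, the arginyl-tRNA synthetase (ENSG00000113643, chromosome 5, 168486445 to 168519299, plus strand), was at 54.5, 52.3 and 50.4 FPKM in OE and at 42.8, 41.9 and 42.4 FPKM in Vector (log2 change 0.30, SE 0.045, adjusted p = 0.00361). EPRS, which charges both glutamate and proline tRNAs, was at 105, 107 and 97.5 FPKM in OE and at 84.0, 81.1 and 87.4 FPKM in Vector (log2 change 0.29, SE 0.050, adjusted p = 0.00614). GARS, the glycyl enzyme of both cytosol and mitochondria, was at 160, 150 and 154 FPKM in OE and at 129, 124 and 130 FPKM in Vector (log2 change 0.28, SE 0.041, adjusted p = 0.00365). In all 3 genes the groups did not overlap. The other called rises were those of LARS (log2 change 0.25), NARS (0.23), KARS (0.23), DARS (0.21), MARS (0.17) and AARS (0.17), the enzymes for leucine, asparagine, lysine, aspartate, methionine and alanine. MARS overlaps exons of the stress gene DDIT3 on the other strand, and KARS those of TERF2IP. Mean FPKM of DDIT3 was 100.6 in OE and 67.66 in Vector, and whether its reads entered the MARS value was not tested.

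The 2 called falls were those of QARS and WARS, the enzymes for glutamine and tryptophan. QARS was at 70.0, 72.2 and 70.1 FPKM in OE and at 78.5, 83.6 and 78.4 FPKM in Vector (log2 change -0.18, SE 0.043, adjusted p = 0.023). WARS, which interferon gamma also induces, was at 163, 166 and 167 FPKM in OE and at 182, 177 and 191 FPKM in Vector (log2 change -0.15, SE 0.041, adjusted p = 0.0351). The OE libraries lay below the Vector libraries in both genes. WARS overlaps exons of WDR25 on the other strand. Both calls ended with library totals set equal (adjusted p = 0.0588 for QARS and 0.114 for WARS), and over 16 alternatives QARS was called in 10 and WARS in 6. The rises of AARS and MARS were called in 10 and 8 of the 16, with adjusted p up to 0.0729 and 0.123. LARS lost its call without Vector replicate 2 (adjusted p = 0.061).

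A set of 8 synthetases is held together in the multi-tRNA synthetase complex of animal cells, and this grouping was made after the values were seen. Of the 8, 6 were called higher (EPRS, RARS, LARS, KARS, DARS and MARS), QARS was called lower and IARS was not called, with a median log2 change of 0.22. Of the 10 synthetases outside the complex 3 were called higher (GARS, NARS and AARS), WARS was called lower and 6 were not called, with a median of 0.12. The difference between the sets was not tested. TARS, the threonyl enzyme, had a log2 change of 0.20 but wide groups, at 95.9, 90.0 and 85.7 FPKM in OE and at 96.4, 69.6 and 71.9 FPKM in Vector, and was not called (adjusted p = 0.224). Vector replicate 1 was the highest of its 6 values.

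**Figure D2:**
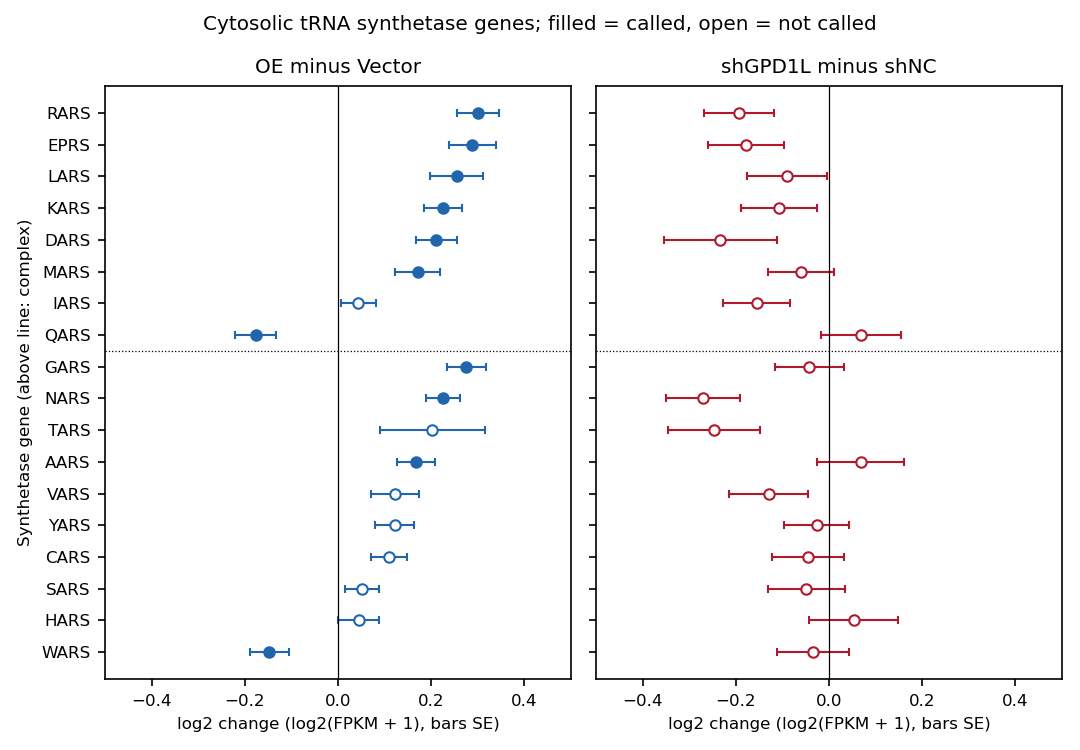
Log2 change (horizontal axis, log2(FPKM + 1), bars SE) of the 18 cytosolic tRNA synthetase genes in OE minus Vector (left) and shGPD1L minus shNC (right). Genes above the dotted line encode enzymes of the multi-synthetase complex, and filled points are called. In OE 9 filled points lie right of 0 and those of QARS and WARS left of it, while all 18 points of the knockdown are open.

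XPOT (ENSG00000184575, chromosome 12, 64404350 to 64451127, plus strand), the exportin that carries mature transfer RNA out of the nucleus, was at 86.6, 83.4 and 82.0 FPKM in OE and at 73.5, 68.9 and 73.5 FPKM in Vector. The groups did not overlap (log2 change 0.22, SE 0.045, adjusted p = 0.0117). SESN2, a stress-induced leucine sensor of the mTORC1 pathway, had a log2 change of 0.12 and was not called (adjusted p = 0.151).

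RefSeq promoter windows, 250 bases before to 50 after a start site, were found for 33 of the 40 genes, some genes having several windows. The windows were searched on both strands for TGATGNAA, the core of the C/EBP-ATF composite element. It was present in 13 of the 33 genes, or 39.4%, and in 4.46% of 27305 RefSeq genes with a window. Of 13 genes with a window that were called higher in OE 7 held it, against 6 of 18 that were not called and 0 of the 2 called lower, with no test made. The 13 sites are printed on the gene's strand with 8 flanking bases (5 after the SLC3A2 site, where the window ends), the motif in capitals. They read TGATGNAA where the motif lies on the gene's strand and as its reverse complement, ending in CATCA, where it lies on the other strand. The search fixed every letter of the motif but the N, so only the N and the flanks could differ between sites. A match in letters does not show binding, and its absence says only that these letters are not in the window. The first 7 are of genes called higher in OE.

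ASNS (chr7:97872461-97872484, minus strand): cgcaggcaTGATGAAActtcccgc
SLC7A1 (chr13:29595666-29595689, minus strand): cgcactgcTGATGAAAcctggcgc
SLC38A1 (chr12:46266505-46266528, minus strand): gacccgaaTGATGAAAagggatca
NARS (chr18:57621807-57621830, minus strand): acgctctcTGATGCAAcgccggaa
GARS (chr7:30594837-30594860, plus strand): cgcggcgaTTTCATCAtgctccga
MARS (chr12:57488056-57488079, plus strand): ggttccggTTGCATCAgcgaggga
AARS (chr16:70289678-70289701, minus strand): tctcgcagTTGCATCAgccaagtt
MTHFD1L (chr6:150866349-150866372, plus strand): gccggctcTGATGCAAtcgcgccg
SLC1A5 (chr19:46784896-46784919, minus strand): gaagtggcTGATGCAAgctgtcca
SLC3A2 (chr11:62881728-62881748, plus strand): aggactccTTACATCAgctcc
CARS (chr11:3057410-3057433, minus strand): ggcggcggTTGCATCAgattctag
IARS (chr9:92293695-92293718, minus strand): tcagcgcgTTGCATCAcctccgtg
TARS (chr5:33440959-33440982, plus strand): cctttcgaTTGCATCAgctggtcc

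Of the 13 sites 6 lie on the gene's strand and 7 on the other. In 5 of the 6 synthetase genes with the motif on the other strand, all but GARS, the 8 letters are the same, and NARS carries their reverse complement. This is a likeness at the N alone, the other letters being fixed by the search. MTHFD2, SLC38A2, XPOT, EPRS, KARS and RARS were called higher and hold no match in their windows.

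When GPD1L was lowered, 0 of the 40 genes were called by limma, where 0.592% of 12156 genes tested were called, 0.115% higher and 0.477% lower. At an unadjusted p under 0.05 there were 8 of the 40 (ASNS, SLC38A1, XPOT, NARS, TARS, PSAT1, SLC38A2 and RARS), each with a lower mean in shGPD1L, and 1980 of all genes tested. The log2 change was negative in 31 of the 40 genes and in 7100 of all genes, with a median of -0.097 over the 40 and -0.036 over all. With median-of-ratios scaling 25 of the 40 were negative, with a median of -0.052 over the 40 and 0.0035 over all. With equal library totals 29 were negative, and with quantile normalization 31. In 12 of the 40 genes all shGPD1L libraries lay below all shNC libraries and in 1, PYCR1, they lay above, where the shares over all genes were 15.1% below and 9.54% above. Without shGPD1L replicate 3, 3 of the 40 genes were called lower, ASNS, SLC38A1 and XPOT, and 0 higher, while over all genes the shares were 3.2% lower (389 genes, against 58 with all libraries) and 1.8% higher (219, against 14).

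SLC38A1 came closest to the threshold with all libraries. It was at 38.9, 37.0 and 38.9 FPKM in shGPD1L and at 49.9, 48.9 and 50.5 FPKM in shNC (log2 change -0.37, SE 0.071, adjusted p = 0.0702). Without shGPD1L replicate 3 the adjusted p was 0.0181 at a log2 change of -0.38. ASNS was at 124, 125 and 126 FPKM in shGPD1L and at 170, 150 and 169 FPKM in shNC (log2 change -0.37, SE 0.081, adjusted p = 0.0992, or 0.034 without replicate 3). XPOT was at 32.0, 32.2 and 40.6 FPKM in shGPD1L and at 45.0, 44.3 and 44.4 FPKM in shNC, so that replicate 3 lay between the others and the control (log2 change -0.35, SE 0.10, adjusted p = 0.174). Without replicate 3 its log2 change was -0.46 (adjusted p = 0.0105). The groups of all 3 genes did not overlap.

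NARS, the asparaginyl-tRNA synthetase, had the smallest p of its class, at 84.4, 87.7 and 80.6 FPKM in shGPD1L and 105, 95.6 and 105 FPKM in shNC (log2 change -0.27, SE 0.079, adjusted p = 0.173). SLC38A2 was at 52.0, 55.6 and 60.1 FPKM in shGPD1L and at 64.2, 63.3 and 66.4 FPKM in shNC (log2 change -0.21, adjusted p = 0.267). Neither gene had overlapping groups. CTH was at 5.73, 5.77 and 7.49 FPKM in shGPD1L and at 5.34, 5.15 and 5.96 FPKM in shNC (adjusted p = 0.514).

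In several genes shGPD1L replicate 3 was the lowest library. PSAT1 was at 116, 126 and 84.9 FPKM in shGPD1L and at 142, 122 and 149 FPKM in shNC (log2 change -0.35, SE 0.15, adjusted p = 0.305). PSPH was at 29.2, 31.6 and 20.8 FPKM in shGPD1L and at 29.6, 30.5 and 36.8 FPKM in shNC, and SESN2 at 23.6, 23.2 and 15.3 FPKM in shGPD1L and 23.7, 23.6 and 23.7 FPKM in shNC. Replicates 1 and 2 of shGPD1L were near the control in SESN2, and the third replicate was the lowest of the 6 libraries in all 3 genes. SLC3A2, at 102 FPKM in replicate 3 against 142 and 155 FPKM in replicates 1 and 2, and DARS, at 37.9 FPKM against 44.8 and 53.4 FPKM, followed the same order. SLC7A5 had its higher values in replicates 1 and 2, at 185, 175 and 150 FPKM in shGPD1L and 150, 151 and 141 FPKM in shNC (log2 change 0.20, adjusted p = 0.36, or 0.0516 at a log2 change of 0.29 without replicate 3).

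**Figure D3:**
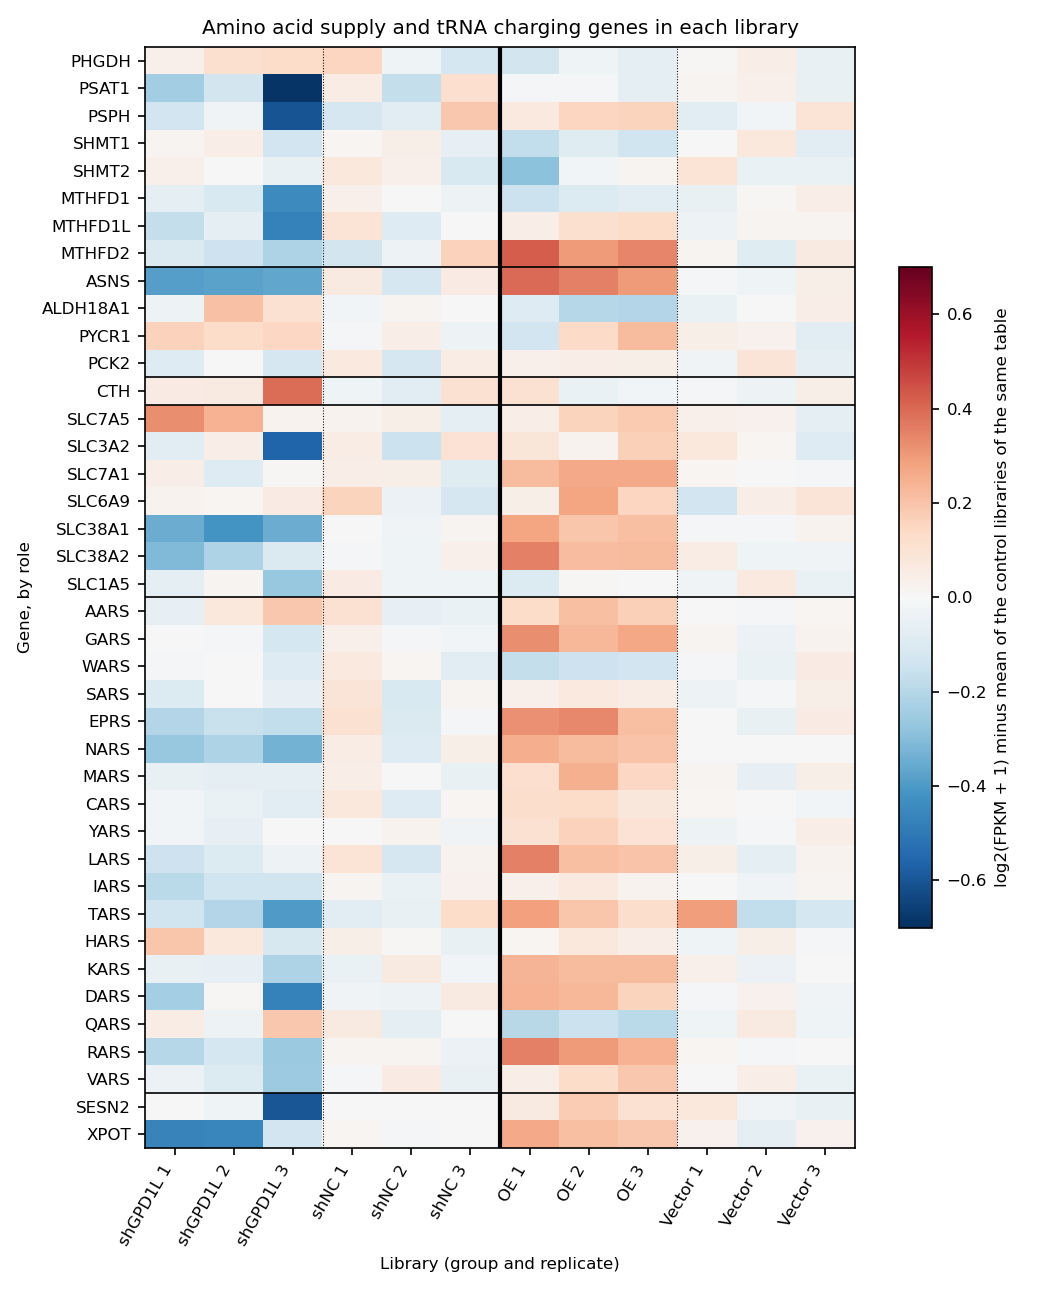
Each row is 1 of the 40 genes, grouped by role, and each column 1 library. Colour gives log2(FPKM + 1) minus the mean of the control libraries (shNC or Vector) of the same table, red above and blue below. The OE columns are red for most synthetases and blue for WARS and QARS, and shGPD1L replicate 3 is the darkest blue for PSAT1, PSPH, SLC3A2 and SESN2.

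Whether a gene moved differently in the 2 experiments was tested over all 12 libraries as OE minus Vector less shGPD1L minus shNC. The experiments share no library. Of the 40 genes 12 were called positive and 0 negative, or 30%, where 14.1% of 11208 genes tested were called, 9.14% positive and 5% negative. Of all genes called 64.6% were positive, and 45.6% with median-of-ratios scaling, where 10 of the 40 genes were called positive, or 49.9% with quantile normalization, where 12 were. The 4 with the largest difference were ASNS (0.72, SE 0.087, adjusted p = 0.00077), SLC38A1 (0.60, SE 0.073, adjusted p = 0.000843), XPOT (0.57, SE 0.11, adjusted p = 0.00871) and MTHFD2 (0.51, SE 0.11, adjusted p = 0.0117), on the log2(FPKM + 1) scale. NARS, RARS, SLC38A2, EPRS, DARS, LARS, KARS and GARS were the others, with differences from 0.32 to 0.50. SLC7A1 did not pass (0.26, adjusted p = 0.0529), being at 46.1, 41.9 and 44.9 FPKM in shGPD1L and at 46.1, 45.9 and 42.0 FPKM in shNC. In 25 of the 40 genes, or 62.5%, the change was negative in the knockdown and positive in the overexpression, against 34% of all genes tested in both. These shares were taken without scaling only. Across the 40 genes the 2 changes had a Pearson correlation of -0.43, given as a description, since the genes share the libraries of each experiment, and the correlation was -0.078 over all genes.

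**Figure D4:**
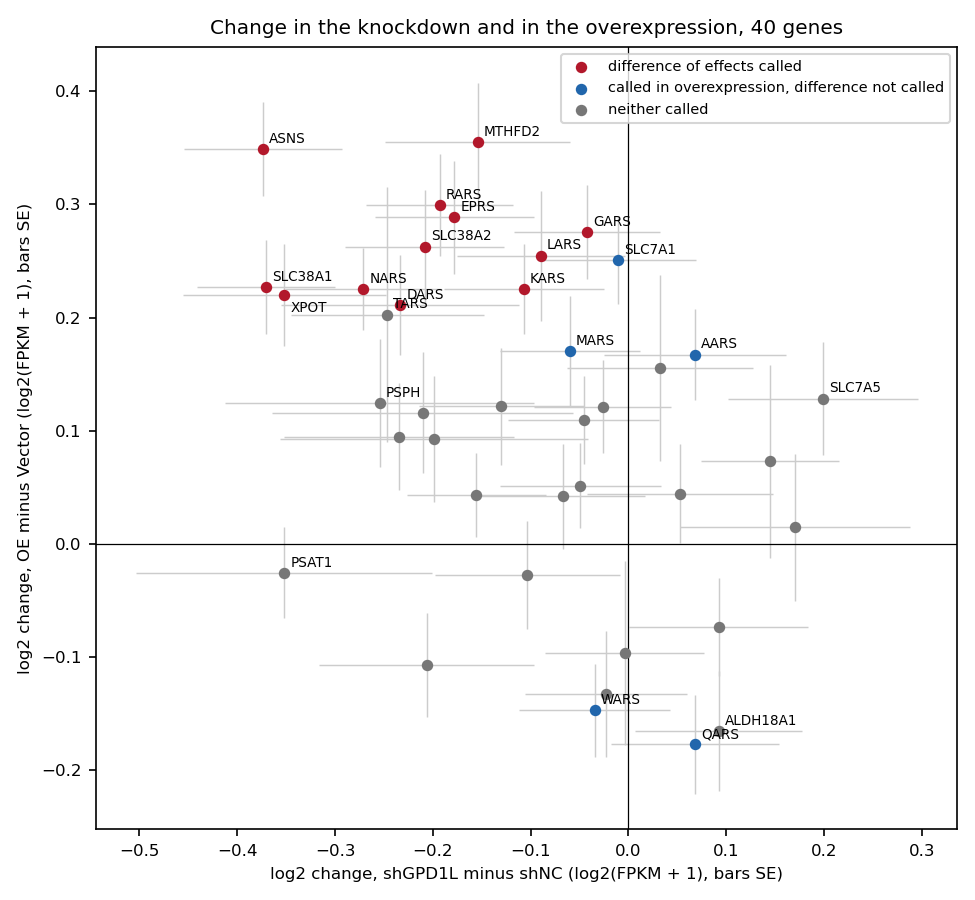
Log2 change in shGPD1L minus shNC (horizontal) and in OE minus Vector (vertical) of the 40 genes, both on log2(FPKM + 1) with SE bars. Red points are the 12 genes whose difference of effects is called, blue points genes called in the overexpression without it, grey points the others. ASNS, SLC38A1 and XPOT lie farthest to the left among the red points, and QARS and WARS lie below 0 on the vertical axis.

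The neighbouring genes of the pathway were read in the same fits. Of 5 other cytosolic synthetase subunits and scaffolds 3 were called higher in OE and 0 lower, where 12.2% and 10.3% of all genes were. These were FARSB, a subunit of the phenylalanyl enzyme (log2 change 0.24, adjusted p = 0.0266), and the complex scaffolds AIMP1 (0.24, adjusted p = 0.0255) and AIMP2. The partner subunit of FARSB, FARSA, went the other way (-0.18, adjusted p = 0.0904), as did EEF1E1 (-0.054, adjusted p = 0.49), and neither was called. Over 16 alternatives FARSB was called in 11 and AIMP1 in 10, with adjusted p up to 0.087 and 0.0761. AIMP1 was at 18.7, 19.3 and 18.7 FPKM in OE and at 16.5, 14.7 and 16.6 FPKM in Vector. Of 17 mitochondrial synthetases 1 was called higher and 2 lower, EARS2 (log2 change -0.30) and CARS2 (-0.25). These are 5.88% higher and 11.8% lower, against 12.2% and 10.3% over all genes, and the list's median log2 change was 0.022. EARS2 was called in 12 of 16 alternatives.

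Other amino acid transporters and enzymes moved in both directions in OE. Of 13 other transporters tested 1 was called higher and 3 lower, or 7.69% and 23.1%, against 12.2% and 10.3% over all genes tested. The cystine transporter gene SLC7A11 was at 68.4, 60.3 and 60.8 FPKM in OE and at 46.2, 46.6 and 43.5 FPKM in Vector (log2 change 0.47, adjusted p = 0.00186). The cationic amino acid carriers SLC7A2 (log2 change -0.51) and SLC7A7 (-0.46) fell. Of 24 other amino acid and folate enzymes tested 2 were called higher and 7 lower, or 8.33% and 29.2%. Among the 7 were the glycine and one-carbon genes GCSH (log2 change -0.34, adjusted p = 0.00393), MAT2A (-0.32, adjusted p = 0.00204) and ALDH1L1 (-0.22, adjusted p = 0.0412). The aspartate aminotransferase gene GOT1, whose product links aspartate to the malate shuttle, was at 67.9, 64.5 and 65.6 FPKM in OE and at 49.1, 49.2 and 49.0 FPKM in Vector (log2 change 0.42, adjusted p = 0.000594). ASS1, which uses aspartate to make argininosuccinate, was at 250.3, 255 and 252 FPKM in OE and at 343, 351 and 343 FPKM in Vector (log2 change -0.45, adjusted p = 0.000242). PRODH, which breaks proline down, fell by 0.41 on the log2 scale at levels of 2.00 to 3.75 FPKM, a call that held in 10 of 15 alternatives. It was also lower in the knockdown, without overlap, at 1.92, 1.87 and 1.91 FPKM in shGPD1L and at 3.09, 3.21 and 2.70 FPKM in shNC, and was not called there (log2 change -0.46, adjusted p = 0.101). In the knockdown with all libraries 0 genes of these 4 lists were called by limma, where 0.592% of all genes tested were called. At an unadjusted p under 0.05 there were 8, against 1980 of all 12156 genes tested. The 8 were 2 of 17 mitochondrial synthetases, 1 of 13 other transporters and 5 of 23 other enzymes. Without shGPD1L replicate 3, SLC7A7 (log2 change -0.46, adjusted p = 0.0278) and ASS1 (-0.30, adjusted p = 0.0392) were called lower by limma. Both were also called lower in OE. In that knockdown fit 3.2% of all genes were called lower, and not every gene of these lists was read. With all libraries the knockdown changes were -0.34 for SLC7A7 (adjusted p = 0.239) and -0.11 for ASS1 (adjusted p = 0.758).

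Of 18 regulators of amino acid sensing and the integrated stress response tested in OE 8 were called higher and 0 lower, led by ATF3 (log2 change 0.71) and DDIT3 (0.57). The share higher was 44.4%, against 12.2% higher and 10.3% lower over all genes tested. Of 19 tested in the knockdown ATF3 alone was called, lower (-0.81, adjusted p = 0.048), where 0.477% of all genes were called lower. That knockdown call held in 4 of 16 alternatives, with adjusted p from 0.0219 to 0.245. ATF4, whose protein is mainly set by translation, was not called in its transcript. It was at 410, 439 and 515 FPKM in OE and at 485, 503 and 393 FPKM in Vector (log2 change -0.017, adjusted p = 0.921). In the knockdown it was at 326, 251 and 262 FPKM in shGPD1L and at 331, 306 and 253 FPKM in shNC (log2 change -0.087, adjusted p = 0.795). The groups overlapped in both. The difference of effects was called positive for AIMP1 (0.43), SLC7A11 (0.60), GOT1 (0.35) and the methionine synthase gene MTR (0.42). It was also called positive for 7 of 18 regulators, among them ATF3 (1.52), DDIT4 (0.94) and DDIT3 (0.54), where 9.14% of all genes were. It was called negative for SLC7A2 (-0.72). The difference call for GOT1 held in 11 of 22 alternatives. In the knockdown itself the log2 change was 0.029 for DDIT3, 0.071 for GOT1 and 0.20 for the called regulator PPP1R15A. It was negative for ATF3 (-0.81), DDIT4 (-0.42), AIMP1 (-0.20), SLC7A11 (-0.13) and MTR (-0.35). The other called regulators, CEBPG, EIF2AK4 and SESN1, were also negative there. MTR had a log2 change of 0.070 in OE.

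**Figure D5:**
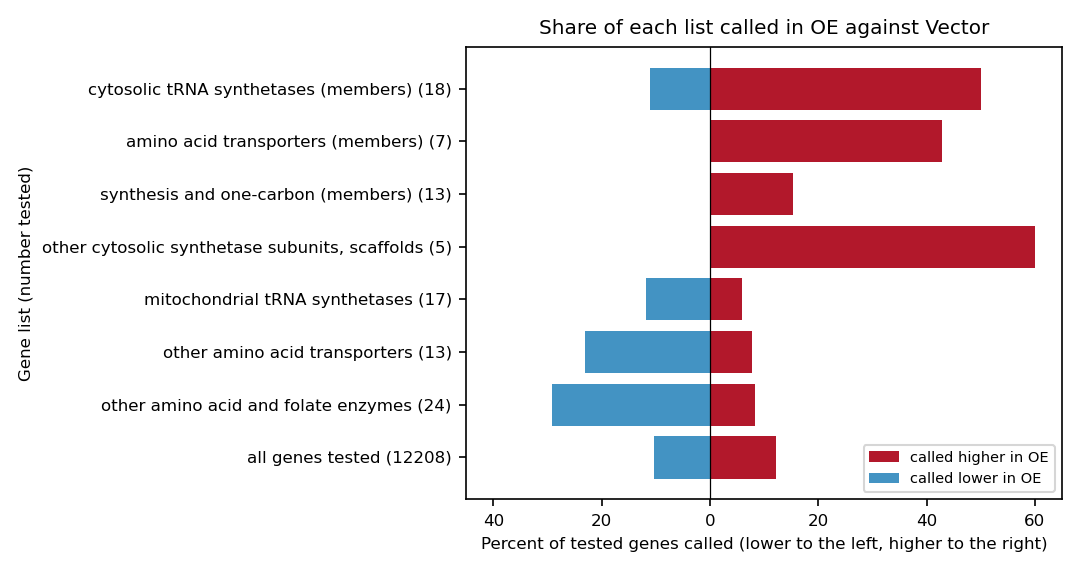
Percent of the tested genes of each list called higher (red, right of 0) or lower (blue, left of 0) in OE against Vector, with the number tested in brackets and all genes tested in the lowest bar. The cytosolic synthetases reach 50% higher and 11.1% lower, the other amino acid and folate enzymes 8.33% higher and 29.2% lower, and all genes 12.2% higher and 10.3% lower.

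In level, the 40 genes spanned a wide range in each line. Mean FPKM ran from 8.29 for CTH to 463 for ASNS in OE and from 8.19 for CTH to 364 for ASNS in Vector, with SARS, PHGDH, PSAT1 and SLC1A5 next after ASNS in both, in differing order. SARS was at 252 ± 2.8 in OE and 243 ± 6.6 in Vector (SD, n = 3 each), and in Vector PHGDH and PSAT1, at 240 ± 8.3 and 239 ± 7.4, lay within that spread. In the hairpin lines the glutamine carrier gene SLC1A5 was highest, at 187 ± 18.9 FPKM in shGPD1L and 201 ± 7.3 FPKM in shNC, ahead of SLC7A5 in shGPD1L and ASNS in shNC. The control lines themselves differed. Mean FPKM was higher in Vector than in shNC in 31 of the 40 genes, with ratios from 0.617 for VARS to 2.25 for PCK2, 2.23 for ASNS and a median of 1.33. The tables may have been normalized separately and hold different lines, so this is a description with no test, and each change above is relative to its own control. No ratio over all genes is given, so these values do not show whether the shift is particular to the 40 genes.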

How the data were processed

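Per the submitters' processing notes HISAT2, StringTie, DESeq2 and GRCh38 were used, with no versions or roles given, and DESeq2 was not run here. Trizol extraction, oligo(dT) bead capture, fragmentation and random hexamer priming are given per the labels' protocols. The authors deposited FPKM values in 2 tables, 1 for each experiment, and these were used as deposited. The reads per library are unknown, so errors are SDs or SEs between libraries and no counting interval is given. Libraries were grouped by title, because the genotype labels change a digit within the gene name with each replicate.

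The 40 genes were read by symbol from fits over the whole table. Values were transformed to log2(FPKM + 1), genes averaging 1 FPKM or more entered limma 3.58.1 (R 4.3.3), whose prior variance followed mean expression, and p-values were adjusted by Benjamini-Hochberg over all genes tested. Coordinates and overlaps come from GENCODE release 29, promoter windows from RefSeq on GRCh38.p14, matched by symbol or the symbol with a 1 appended. The fits were checked on simulated data, and figures were drawn with matplotlib 3.10.9. Genes with values in every library were, per class and experiment, the up to 3 called higher and 3 called lower with the largest change, or the gene with the smallest p, with others added after the values were seen. The genes, lists and tests were chosen with earlier results of these data known. Alternatives tried were a pseudocount of 0.1 or 0.5, filters of none or 5 FPKM, equal totals, median-of-ratios, quantile normalization, eBayes without trend or robust, a replicate block, and leaving out each library. Some genes of the lists are counted but not reported by name here.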

Additional observations from a re-analysis of the deposited data

Results flagged for a closer look

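In 12 genes the change differed between the 2 experiments by a test of the difference itself (OE minus Vector less shGPD1L minus shNC, limma over 12 libraries, log2(FPKM + 1) scale). The differences were 0.72 for ASNS, 0.60 for SLC38A1, 0.57 for XPOT and 0.51 for MTHFD2. They were 0.50 for NARS, 0.49 for RARS, 0.47 for SLC38A2 and 0.47 for EPRS. The remaining values were 0.44 for DARS, 0.34 for LARS, 0.33 for KARS and 0.32 for GARS. Over 22 alternatives DARS and LARS were each called in 9, with adjusted p up to 0.11 and 0.104, KARS in 17, GARS in 18, and EPRS and MTHFD2 in 21 each. Of these genes 0 were called by limma in the knockdown by itself with all 6 libraries (6 at an unadjusted p under 0.05), while 12 were called in the overexpression.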

How the results depend on the processing

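Of the 17 genes called in the overexpression 12 were called under each of 16 alternatives, and of the 12 called differences 6 under each of 22. ASNS, NARS, RARS, SLC38A1, SLC38A2 and XPOT were among both, and AARS, LARS, MARS, QARS and WARS lost the overexpression call at least once. Sign changes concerned genes without a call. PSAT1 in the overexpression was at 0.025 with equal totals and 0.033 with quantile normalization, and CTH at -0.0031 with median-of-ratios scaling and -0.013 with quantile normalization. Without 1 library CTH lay between -0.032 (without OE replicate 1) and 0.044 (without OE replicate 2), and at -0.0026 without Vector replicate 2. With all libraries, scaling or the prior moved several counts by over 1.5 times. Knockdown genes called lower were 36 with median-of-ratios scaling and 17 with quantile normalization, and called higher 8 with quantile normalization and 9 without trend. Overexpression genes called higher were 2441 with equal totals, and of the 40 genes 0 were lower with equal totals, 1 with quantile normalization and 0 without trend. Positive differences were 637 with median-of-ratios scaling and 667 with quantile normalization.

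Same-numbered libraries had correlations of deviations from -0.18 to -0.0155 in the knockdown and from -0.0607 to 0.0222 in the overexpression. Libraries of different number had -0.0689 to 0.25 in the knockdown and -0.0331 to 0.0709 in the overexpression. Deviations from a mean of 3 libraries are tied to each other, so these values cannot settle whether replicate numbers pair the libraries. With a replicate block 0 genes were called higher and 3 lower in the knockdown, 13 of the 40 genes higher and 1 lower in the overexpression, and 293 genes positive and 190 negative in the difference, with 6 of the 40 positive.

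Leaving out each library in turn gave 12 to 16 of the 40 genes higher and 0 to 1 lower in the overexpression, 0 higher and 0 to 3 lower in the knockdown, and 8 to 15 positive and 0 to 1 negative in the difference. Over all genes it gave 809 to 957 higher and 731 to 1037 lower in the overexpression, 0 to 219 higher and 0 to 389 lower in the knockdown, and 512 to 1546 positive and 278 to 1026 negative in the difference. In the knockdown the 3 calls came without shGPD1L replicate 3. Read depth is unknown, and no test for outlying values was run gene by gene in groups of 3.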
